A study of Danio rerio with 7 samples.

Results

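H3K27ac is an acetylated form of histone H3 that marks active enhancers and active promoters, and H3K4me3 is a methylated form of the same histone that marks promoters. A stretch of chromatin with H3K27ac and without H3K4me3 is the usual signature of an active enhancer, a stretch of DNA that raises transcription of a gene from a distance. Cdx4, a homeodomain protein of the caudal family, patterns the posterior body and the blood-forming mesoderm in zebrafish, and Sall4, a zinc finger protein of the spalt family, acts in embryonic stem cells and early mesoderm. The domains described here are the wide ones of this kind, selected on measured values: the rule took H3K27ac domains over 500 bp wide that share no base with an H3K4me3 domain. They numbered 562 of 4599 H3K27ac domains and covered 599.6 kb. Their width and their lack of H3K4me3 are therefore no findings. Cdx4 and Sall4 peaks are not part of the rule, but the domains were chosen with earlier results of these data known.

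All libraries came from whole wild-type embryos of the Tu strain at bud stage, the close of gastrulation, with 500 embryos collected per experiment. Cdx4 and Sall4 carried a Myc tag and were precipitated through it with an anti-Myc antibody, and the histone marks were precipitated with antibodies of their own. Some embryos received mRNA by injection at the 1-cell stage and others none. Wild-type embryos make no Myc-tagged protein, so the Cdx4 and Sall4 libraries are taken to come from injected embryos. For the histone libraries the labels do not state whether the embryos were injected. Factor peaks and histone domains may thus come from differently treated embryos, and effects of injection were not tested. Place and level of the tagged proteins in the embryo were not measured. A Myc tag is not part of the embryo's own proteins, so the Cdx4 and Sall4 peaks are those of tagged protein. Binding of the embryo's own Cdx4 and Sall4 was not measured. Whole embryos mix all cell types, so a domain and a peak at the same place need not lie in the same cells. Each target had 1 library and 1 deposited interval list, and 3 input libraries were not analysed here. Values therefore have no spread between libraries, no test between conditions was possible, and the 95% intervals given below cover counting error only. Positions are on zebrafish assembly Zv8, for which no gene annotation or sequence was used here, so domains are named by position and not by gene.

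Most wide domains without H3K4me3 held no peak of either factor, as did most H3K27ac domains of any kind, and the shares with Cdx4 and with neither factor were about those over all H3K27ac domains. The wide domains that held a peak mostly held both factors. A Cdx4 peak overlapped 159 of the 562 domains (28.3%, exact binomial 95% interval 24.6 to 32.2%), beside 30.7% of all H3K27ac domains. A Sall4 peak overlapped 157 (27.9%, 24.3 to 31.8%), beside 23.8% of all H3K27ac domains. Peaks of both factors were present in 125 domains (22.2%, 18.9 to 25.9%), and that share was 16.6% over all H3K27ac domains. Neither factor had a peak in 371 domains (66.0%, 61.9 to 69.9%), beside 62.1% over all. The remaining domains held a single factor, Cdx4 in 34 and Sall4 in 32. The domains with a peak of either factor numbered 191 and had a median width of 699 bp (699 to 799 bp). The 371 without a peak had a median width of 799 bp (799 to 899 bp), so the intervals meet. Among domains over 1000 bp the order was the other way, with medians of 1799 bp with a peak and 1499 bp without. The share of domains with factor peaks differed between width classes, as given below. Values by width are therefore given beside the comparisons that follow, and the part of width in them was not tested beyond these classes.

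Cdx4 without Sall4 was found in 6.05% of the wide domains without H3K4me3 (4.23 to 8.35%), in 16.4% of the 2911 narrow domains without H3K4me3 (15.1 to 17.8%) and in 16.0% of the 344 wide domains with H3K4me3 (12.3 to 20.3%). The narrow domains nearest in width, over 400 and up to 500 bp, were close to the wide ones at 7.23% (4.64 to 10.7%), so the low share was not limited to domains over 500 bp. Of the domains with a Cdx4 peak, 78.6% (125 of 159, 71.4 to 84.7%) also held a Sall4 peak. That share was 53.2% (543 of 1021) in narrow domains without H3K4me3 and 43.3% (42 of 97) in wide domains with H3K4me3. In the other direction, 79.6% of the wide domains with a Sall4 peak also held Cdx4, against 69.2% of narrow domains without H3K4me3 and 67.7% of wide domains with H3K4me3. In narrow domains over 400 and up to 500 bp, 127 domains held both factors, out of 150 with Cdx4 and 146 with Sall4. Frequent presence of both factors was thus not limited to domains over 500 bp. A wider domain has more room for peaks of both factors, so direct overlap was also counted per peak. Of the 238 Cdx4 peaks in the wide domains, 54.2% (47.6 to 60.7%) shared at least 1 bp with a Sall4 peak. In narrow domains without H3K4me3 this was 51.1% (48.1 to 54.2%), in wide domains with H3K4me3 35.4% (26.6 to 45.0%), and over the whole Cdx4 list 45.5%. For Cdx4 peaks, the wide domains thus stood near the narrow domains without H3K4me3 of all widths and above the wide domains with H3K4me3. They stood below the narrow domains over 400 and up to 500 bp, where the share was 72.4% of 181 Cdx4 peaks (65.3 to 78.7%). For Sall4 peaks the wide domains were also below that class, but near the wide domains with H3K4me3. In the wide domains 55.2% of 221 (48.4 to 61.9%) overlapped a Cdx4 peak. This was 63.2% (59.8 to 66.4%) in narrow domains without H3K4me3, and 72.6% (65.2 to 79.2%) in those over 400 and up to 500 bp. In wide domains with H3K4me3 it was 55.9% (43.3 to 67.9%), beside 23.8% of the whole Sall4 list.

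The overall share of domains with a factor peak hid a steep dependence on width. From over 500 up to 600 bp, the share of 159 domains with Cdx4 was 41.5% and the share with Sall4 was 42.8%. From over 600 up to 800 bp the shares among 159 domains were 28.9% and 28.3%. Among the 119 domains over 800 and up to 1200 bp they were 18.5% and 15.1%, and among the 82 domains over 1200 and up to 2000 bp 13.4% and 14.6%. Only the 43 widest domains, over 2000 bp, departed from this fall, with Cdx4 in 32.6% (19.1 to 48.5%) and Sall4 likewise in 32.6%. Their Cdx4 share minus that of the class up to 600 bp was -8.95 points, with a Newcombe 95% interval that includes 0 (-23.3 to 7.69). Counted per length, Cdx4 peaks numbered 1.01 per kb (0.818 to 1.23, exact Poisson interval) in the domains up to 600 bp, 0.569 in the next class, 0.261 and 0.130 in the classes up to 1200 and 2000 bp, and 0.196 per kb (0.128 to 0.287) in the widest. The higher share in the widest domains therefore came with a density no higher than in the class up to 1200 bp. Sall4 followed the same course, from 0.862 per kb in the domains up to 600 bp to 0.130 per kb in the class up to 2000 bp and 0.173 per kb in the widest. Of the 26 Cdx4 and 23 Sall4 peaks in the widest class, 1 domain held 7 and 6. The Poisson intervals take such peaks as independent.

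**Figure D1:**
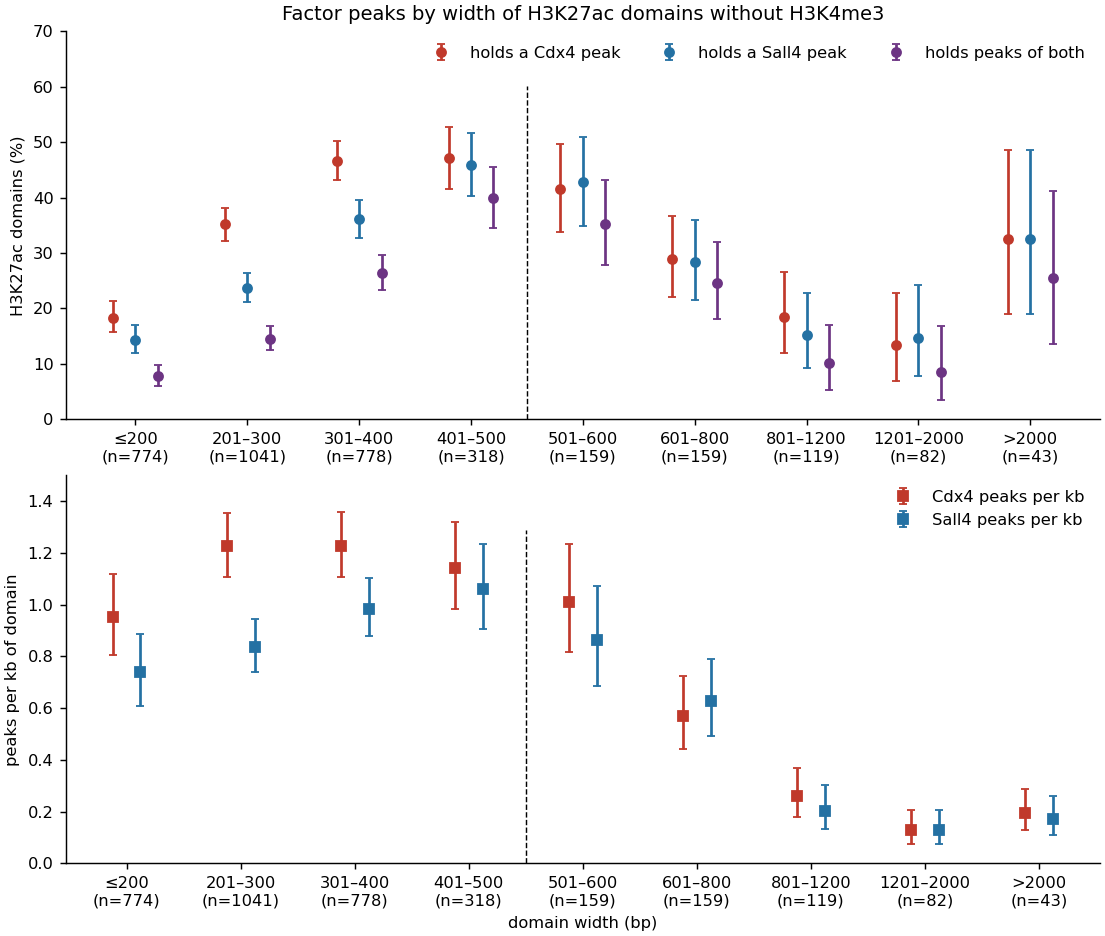
The upper panel shows, for H3K27ac domains without H3K4me3 in classes of width (bp), the percentage that held a Cdx4 peak, a Sall4 peak or both, with exact binomial 95% intervals; the lower panel shows peaks per kb of domain with exact Poisson 95% intervals. The dashed line marks the width of 500 bp above which a domain counted as wide, and shares fall to its right until the class over 2000 bp.

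The width of 500 bp lay close to where the share of domains with a factor peak was highest. Just outside it, Cdx4 was in 47.2% and Sall4 in 45.9% of the 318 domains over 400 and up to 500 bp. From over 300 up to 400 bp the shares were 46.7% and 36.1%, and up to 200 bp 18.3% and 14.3%. Density had another course for Cdx4, with 1.23 peaks per kb both from over 200 up to 300 bp and from over 300 up to 400 bp. It was 1.14 per kb from over 400 up to 500 bp. For Sall4 these densities were 0.836, 0.985 and 1.06 per kb. Compared with all narrow domains without H3K4me3, the wide domains had a lower Cdx4 share (difference -6.78 points, -10.8 to -2.56) and a Sall4 share that differed by 0.969 points (-2.94 to 5.13). With the width set at 400 bp these differences were 1.52 points for Cdx4 and 9.79 points for Sall4, and with 600 bp -12.3 points for Cdx4 and -5.70 points for Sall4, so for both factors sign and size depended on that choice. Compared with wide domains with H3K4me3, the Cdx4 share differed by 0.0941 points (-6.03 to 6.02), while the Sall4 share was higher by 9.91 points (4.25 to 15.3). These also moved with the width chosen. The Cdx4 difference was 8.19 points over 400 bp, -7.63 points over 600 bp and -14.5 points over 1000 bp, and the Sall4 difference was 16.6, 3.36 and -2.66 points. Per kb, the wide domains without H3K4me3 held 0.397 Cdx4 peaks (0.348 to 0.451) and 0.369 Sall4 peaks (0.322 to 0.421). Narrow domains without H3K4me3 held 1.17 and 0.907 per kb, and wide domains with H3K4me3 0.305 and 0.184 per kb.

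The share of peaks common to both factors was lower in the wider classes, though with few peaks there. In the domains up to 600 bp, 61.5% of 96 Cdx4 peaks (51.0 to 71.2%) overlapped a Sall4 peak, and in those over 600 and up to 800 bp 62.7% of 67 did. In the 3 wider classes the share was 37.5% of 32 peaks, 35.3% of 17 and 38.5% of 26. The intervals in these 3 classes (from 14.2 to 61.7% in the class up to 2000 bp) overlap those of the narrower ones. In the widest class, 7 of the 26 Cdx4 peaks lay in 1 domain. Sall4 peaks gave 62.2%, 58.1%, 48.0%, 35.3% and 43.5% from the narrowest to the widest class.

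Most of the wide domains with both factors held directly overlapping peaks. The wide domains held 130 overlapping Cdx4-Sall4 pairs in 103 domains, which were 82.4% (74.6 to 88.6%) of the 125 domains with both factors. More than 1 pair was held by 24 domains. The share with a pair was 83.2% of 167 domains with H3K4me3 ignored (76.7 to 88.6%). Over 400 bp it was 86.5% of 252 domains (81.7 to 90.5%). Both sets include these 125 domains, so a like share is partly built in. Shares for the added domains alone are not given here, so no comparison with them is drawn. Between the centres of a pair the median distance was 26 bp, with quartiles of 11 and 59.8 bp. All peaks are 100 bp wide, so overlap by itself limits this distance to under 100 bp. In the other 22 domains with both factors, where lack of overlap sets a distance of at least 100 bp, the closest Cdx4 and Sall4 centres were 106 to 1013 bp apart, with a median of 165.5 bp. A single domain rarely held many peaks: 94 domains had 1 Cdx4 peak, 55 had 2, 9 had 3 and 1 had 7, and for Sall4 104 had 1, 45 had 2, 7 had 3 and 1 had 6.

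Within a domain, factor peaks gathered around the middle. Of the Cdx4 peaks, 73.9% (67.9 to 79.4%) had their centre in the central 50% of the domain's width, and of the Sall4 peaks 63.8% (57.1 to 70.1%). The median distance from the domain's middle, as a fraction of the distance from middle to edge, was 0.335 for Cdx4 (0.299 to 0.376) and 0.345 for Sall4 (0.302 to 0.426), where evenly spread points would have 0.5. Narrow domains without H3K4me3 were alike, so this position was not particular to the wide ones. Their central 50% held 74.8% of Cdx4 and 69.4% of Sall4 peaks, and the median fractions were 0.318 and 0.324. Among the wide domains, the central position was clearest in those up to 800 bp, with 79.1% of Cdx4 and 69.9% of Sall4 peaks in the central zone. In domains over 800 bp these shares were 62.7% (50.7 to 73.6%) and 49.2% (36.6 to 61.9%), and the Sall4 interval includes the 50% of an even spread. Density fell sharply at the edges. There were 0.587 Cdx4 peak centres per kb in the central zone, 0.190 in the outer zone, 0.0658 in the 500 bp beyond each edge and between 0.0469 and 0.0587 from there out to 5 kb. For Sall4 the corresponding densities were 0.470, 0.240, 0.0854 and 0.0463 to 0.0623 per kb.

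**Figure D2:**
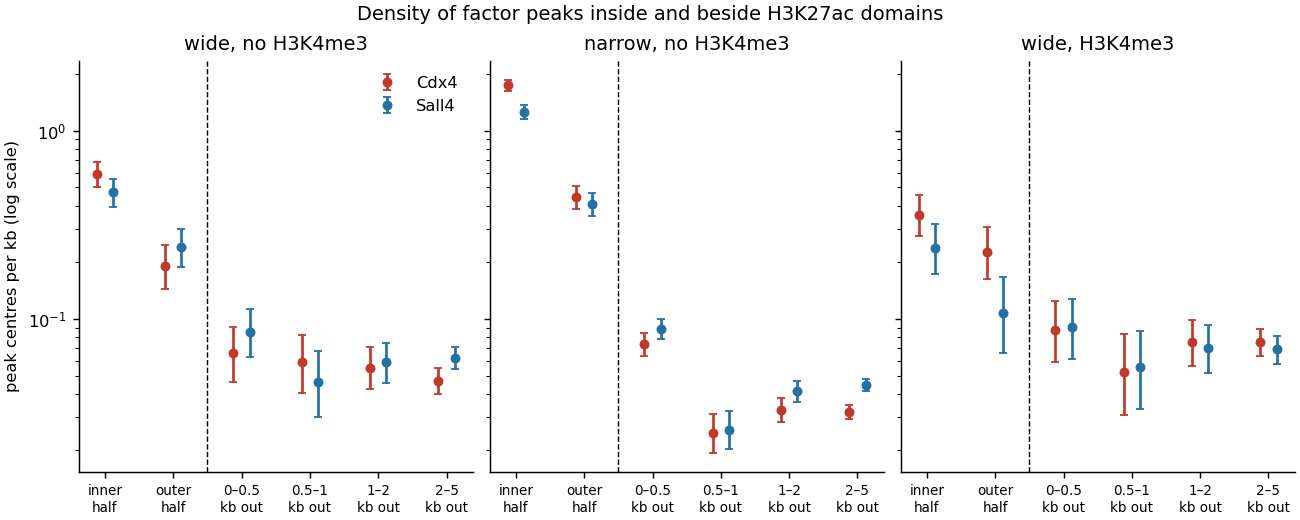
Density of Cdx4 and Sall4 peak centres (per kb, log scale, with exact Poisson 95% intervals) in the inner and outer part of H3K27ac domains and in 4 distance bands outside them, for wide domains without H3K4me3, narrow domains without H3K4me3 and wide domains with H3K4me3. Left of the dashed line lies the domain itself; bands outside may run into neighbouring domains. In the first panel Cdx4 falls to 0.0658 per kb just outside the domain, against 0.587 per kb in its inner part.

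The score is the authors' own number for each interval, of a scale they do not state, and it was used only within a list. Peaks in the wide domains, like those in H3K27ac domains in general, had a higher median score than the list they came from. The median score was 96 for the Cdx4 peaks in them (85 to 106) and 83 over the Cdx4 list, and 107 for the Sall4 peaks in them (100 to 114) and 88 over the Sall4 list. In narrow domains without H3K4me3 the medians were 109 for Cdx4 and 103 for Sall4, and in H3K27ac domains of any kind 102 for each factor. The best-scoring 25% of the Cdx4 list contributed 39.1% (32.8 to 45.6%) of the Cdx4 peaks in wide domains, and the lowest-scoring 25% contributed 22.7%. In narrow domains without H3K4me3 these shares were 44.7% and 11.8%, so low-scoring Cdx4 peaks were a larger part of those in the wide domains. For Sall4 the wide domains had 40.3% from the best-scoring and 11.3% from the lowest-scoring 25%, against 37.2% and 16.4% in narrow domains without H3K4me3.

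The highest-scoring Cdx4 peak in a wide domain had a score of 617 and ranked 4 in the Cdx4 list. It lay on chromosome 15 in a domain of 599 bp at 19834000 to 19834598, together with an overlapping Sall4 peak of score 188, and 1701 bp from the nearest H3K4me3 domain. The highest-scoring Sall4 peak, with a score of 450 and rank 8 in its list, lay on chromosome 24 in another domain of 599 bp, at 13316300 to 13316898. That domain held 2 Cdx4 peaks, the better with a score of 81, and the nearest H3K4me3 domain was 24001 bp away. Both sites are thus among the narrowest of the wide domains and carry overlapping peaks of the factors.

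Domains with and without factor peaks differed in their surroundings, and this depended on width. Among the 318 domains up to 800 bp wide, the 130 with a peak lay a median of 22601 bp from the nearest H3K4me3 domain and the 188 without a peak 4801 bp. An H3K4me3 domain was within 5 kb of 23.8% of those with a peak (16.8 to 32.1%) and of 46.8% of those without (39.5 to 54.2%), a difference of -23.0 points (Newcombe 95% interval -32.6 to -12.3). A domain with no such neighbour on its sequence was counted as having none within 5 kb and is left out of the medians. Distance to the nearest other H3K27ac domain showed the same order, with medians of 12451 bp with a peak and 801 bp without. Another H3K27ac domain was within 5 kb of 39.2% of those with a peak (30.8 to 48.2%) and of 64.9% of those without (57.6 to 71.7%), a difference of -25.7 points (-35.9 to -14.5). In this range of widths, most domains with Cdx4 or Sall4 had no other acetylated domain within 5 kb, while most domains without them did.

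Above 800 bp these differences were not seen, with fewer domains and wider intervals. Another H3K27ac domain was within 5 kb of 82.0% of the 61 domains with a peak and of 82.0% of the 183 without, a difference of 0 points (-12.4 to 9.86). H3K4me3 was within 5 kb of 65.6% of the domains with a peak (52.3 to 77.3%) and of 51.9% of those without (44.4 to 59.3%), a difference of 13.7 points whose interval includes 0 (-0.748 to 26.5). Over 1000 bp that difference was 20.3 points (3.63 to 34.0), the opposite of the order among the domains up to 800 bp. Pooled over all widths, domains with a peak had H3K4me3 within 5 kb less often (difference -12.2 points, -20.4 to -3.48) and another H3K27ac domain within 5 kb less often (difference -20.4 points, -28.7 to -12.0), values that average over unlike widths.

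**Figure D3:**
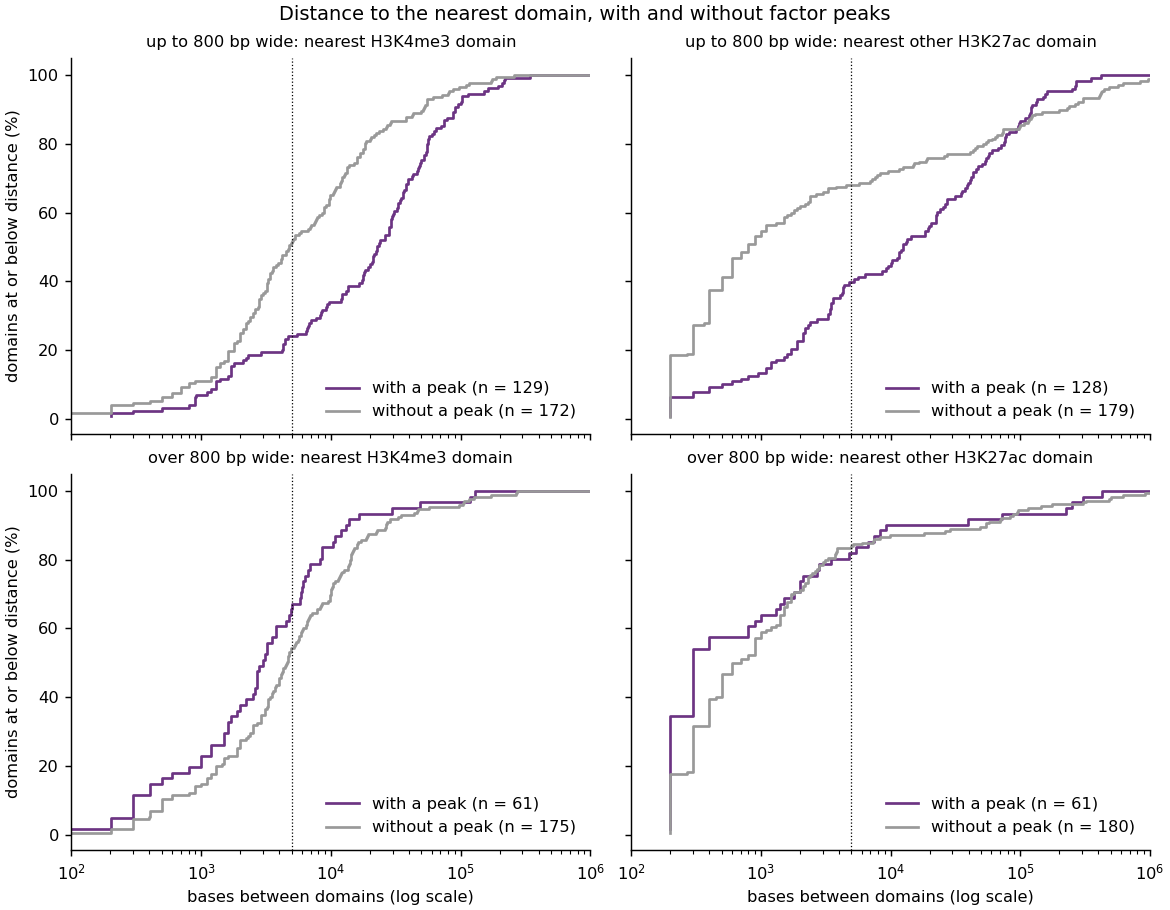
Cumulative percentage of wide H3K27ac domains without H3K4me3 (y axis) by the number of bases to the nearest H3K4me3 domain (left) or other H3K27ac domain (right; x axis, log scale), for domains up to 800 bp wide (top) and wider ones (bottom), with a factor peak (purple) and without (grey). Domains with no such neighbour on their sequence are left out, so curves stand slightly above the percentages in the text, which are of all domains. At the dotted line (5 kb) the purple curves lie below the grey ones in the top panels and nearly meet them in the bottom right panel.

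The width classes show the course in more detail. In the narrowest class, up to 600 bp, the medians to H3K4me3 were 27101 bp with a peak (78 domains) and 4101 bp without (81 domains). They were 19901 and 4901 bp in the class up to 800 bp, 4651 and 4851 bp in the class up to 1200 bp, 3201 and 4201 bp in the class up to 2000 bp, and 2501 and 3701 bp in the widest class. The domains without a peak thus had a median of 3701 to 4901 bp in every class, and that of the domains with a peak was lower in each wider class. Over all widths, the domains with both factors lay a median of 15051 bp from H3K4me3 (6801 to 22101 bp), beside 7601 bp with Cdx4 alone and 6801 bp with Sall4 alone, whose intervals overlap it.

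Absence of an overlapping H3K4me3 domain did not mean that H3K4me3 was far away. Over all the wide domains the median distance was 5900 bp (4801 to 6901 bp, 537 domains on a sequence with an H3K4me3 domain), and 65 domains (11.6%) lay within 1 kb of H3K4me3. Narrow domains without H3K4me3 lay farther off, at a median of 18001 bp (16501 to 20001 bp), with 6.42% within 1 kb. At the edge of the rule, 5 wide domains lay within 200 bp of H3K4me3, each with a gap of only 1 bp, and held 0 Cdx4 peaks and 1 Sall4 peak. Another 14 wide domains overlapped H3K4me3 by less than 200 bp and were left out, with Cdx4 in 4 of them and Sall4 in 5. Requiring 1 kb to the nearest H3K4me3 domain changed the median distance to 7801 bp and left the shares with factor peaks within their intervals. A called domain depends on depth and thresholds that the labels and files do not state, and H3K4me3 below the calling threshold was not tested.

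Many of the domains had acetylated neighbours. Another H3K27ac domain lay within 5 kb of 373 of them (66.4%, 62.3 to 70.3%), beside 35.3% of all H3K27ac domains. This share was 29.6% in narrow domains without H3K4me3 and 59.0% in wide domains with H3K4me3. For the 373, the nearest neighbour was a narrow domain without H3K4me3 in 197 cases and another wide domain without H3K4me3 in 122. It was a wide domain with H3K4me3 in 36 and a narrow domain with H3K4me3 in 18. The nearest lay within 500 bp in 186 cases. Merging gaps of at most 500 bp lowered the share within 5 kb to 52.0% of 558 domains. Whether close neighbours are pieces of 1 acetylated stretch was not tested. Linking wide domains with gaps of at most 10 kb gave 80 runs of more than 1 domain, with 213 domains in all. Domains with a factor peak were in a run in 27.2% of cases (52 of 191, 21.0 to 34.1%) and domains without in 43.4% (161 of 371, 38.3 to 48.6%). This too depended on width. Up to 800 bp the shares were 15.4% with a peak and 36.7% without (difference -21.3 points, Newcombe 95% interval -30.1 to -11.6), and over 800 bp 52.5% with a peak and 50.3% without (difference 2.19 points, -12.0 to 16.2). In 44 of the 80 runs no wide domain held a peak, in 12 every wide domain did, and 24 were mixed. Of the 213 domains in runs 161 held no peak, and whether this split goes beyond that share was not tested.

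The longest run had 8 wide domains on chromosome 19 between 38899200 and 38928698. Over these 29499 bp there were 22 H3K27ac domains of any width, 0 H3K4me3 domains, 0 Cdx4 peaks and 0 Sall4 peaks. These 8 domains were 599 to 2399 bp wide with H3K27ac scores of 92 to 990, and the nearest Cdx4 peak lay 1022 bp beyond the edge of the run. The next longest, with 7 wide domains on chromosome 15 from 19834000 to 19853198, opened with the domain of the Cdx4 peak of score 617. It spanned 13 H3K27ac and 3 H3K4me3 domains with 4 Cdx4 and 4 Sall4 peaks, of which its wide domains held 1 of each. The domain that opened this run ended at 19834598 and the next wide one started at 19843600, again just within the limit for linking. Other limits were not tried. A further 5 wide domains without any factor peak followed on the same chromosome from 19865000 to 19881298. These 3 runs of 8, 7 and 5 wide domains thus held a factor peak in 0, 1 and 0 of them, beside 52 of the 213 domains in runs. The run of 5 was named for its place near the run of 7. Other runs of 5, on chromosomes 13, 22 and 23, held a factor peak in 1, 0 and 0 wide domains.

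The widest domain also held the most peaks. On chromosome 23 at 37024700 to 37031298, it was 6599 bp wide and held 7 Cdx4 and 6 Sall4 peaks with 4 overlapping pairs, 301 bp from H3K4me3. All its peaks lay on the side of lower coordinates, with Cdx4 centres 18 to 2352 bp and Sall4 centres 272 to 2363 bp from the domain's start. The centres were spaced 249 to 466 bp apart for Cdx4 (median 400.5 bp) and 322 to 472 bp apart for Sall4 (median 454 bp). Outside the domain there were 2 Cdx4 and 4 Sall4 peaks in the 3000 bp below its start and 0 of either in the 3000 bp above its end. Near the domain's start the series ran on outside it. In kb from the domain's middle, a Cdx4 peak outside started at -3.757, beside -3.33 for the first one that overlaps the domain. Sall4 peaks outside started at -3.898 and -3.486, beside -3.076 for the first one inside. The spacing did not run on throughout, since the next peaks outward started at -5.877 for Cdx4 and -5.84 for Sall4. Its H3K27ac score of 602 ranked 132 of 562, so the widest domain was not among the highest-scoring.

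The next 3 in width held no peak of either factor and had the 3 highest H3K27ac scores. A domain of 5599 bp on chromosome 6 (42855800 to 42861398) scored 3488, with the nearest Cdx4 peak 452551 bp and the nearest Sall4 peak 57339 bp away. On chromosome 12 (27462900 to 27468298) a domain of 5399 bp scored 4411, with Cdx4 at 3869 bp and Sall4 at 3918 bp. The domain of 5299 bp at 8816200 to 8821498 of chromosome 23 scored 3774, with Cdx4 at 153741 bp and Sall4 at 43828 bp. High scores did not go with a lack of peaks in general, since 5 of the 10 and 15 of the 50 highest-scoring domains held a peak, beside 191 of all 562. Whether the score is a sum over the domain, and so partly its width, is not stated. The domain of 3799 bp on chromosome 23 at 8994000 to 8997798 also held none and scored 250, and it lay 300 bp from H3K4me3. The fifth in the order of width without a peak was 3299 bp wide, on chromosome 14 at 6465700 to 6468998, with a score of 1809. Others among the 10 widest held 1 to 3 peaks. The domain of 4199 bp on chromosome 25 (33951300 to 33955498) held 2 Cdx4 peaks and 1 Sall4 peak. Those of 4099 bp on chromosome 21 (39189300 to 39193398) and 3799 bp on chromosome 10 (27945500 to 27949298) each had 1 Cdx4 peak and 2 Sall4 peaks. Of 2 domains of 3699 bp, the one on chromosome 11 (40853100 to 40856798) had 2 Cdx4 peaks and no Sall4 peak, and the one on chromosome 18 (16225100 to 16228798) had 1 Sall4 peak and no Cdx4 peak. None of these 5 domains held an overlapping pair.

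**Figure D4:**
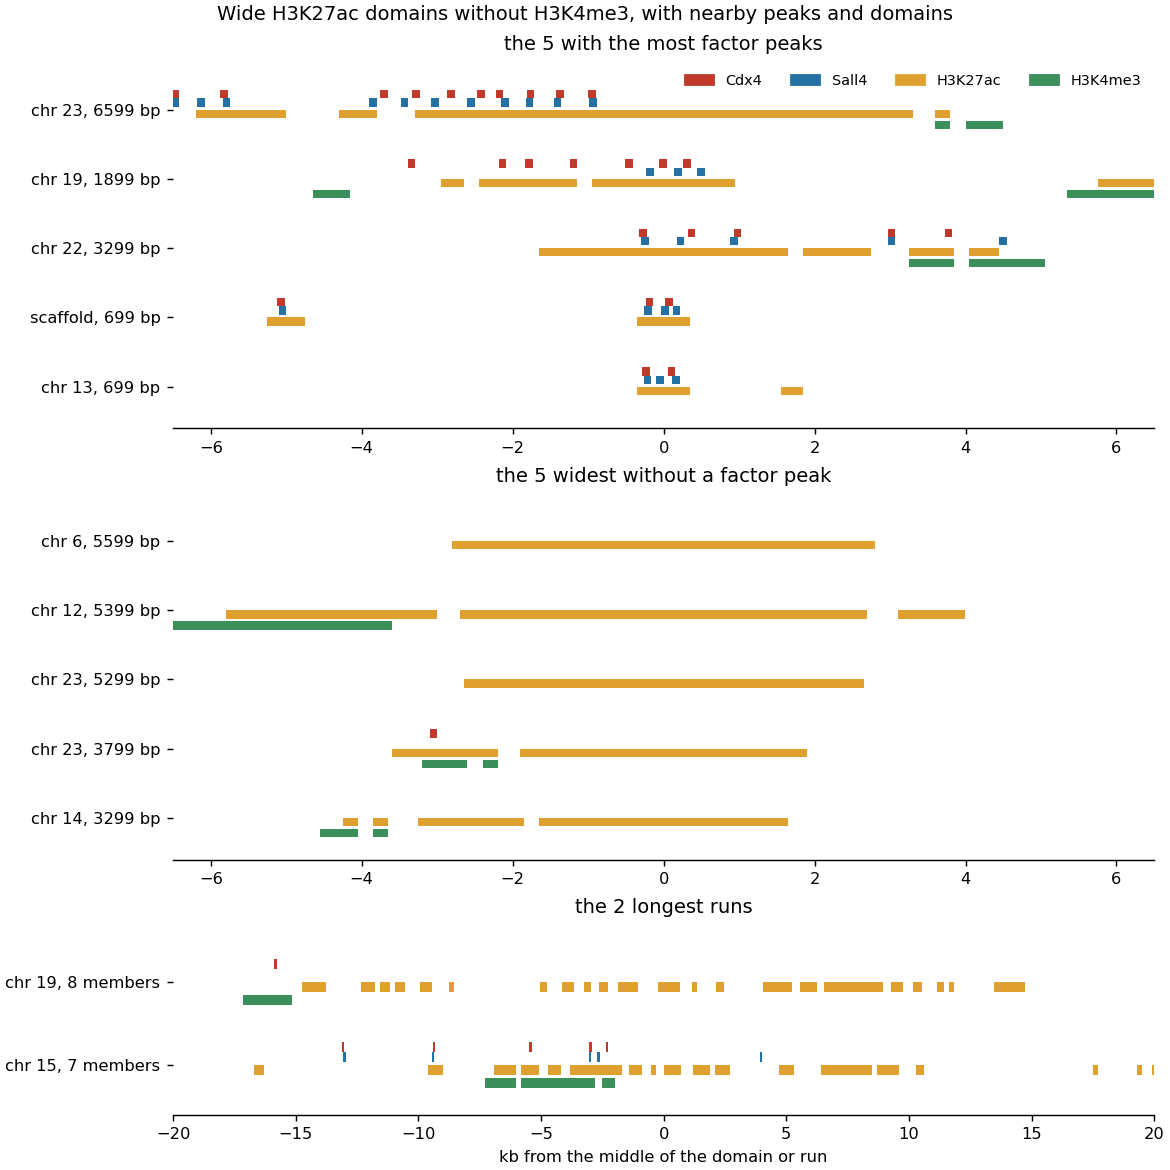
Maps, in kb from the middle of each domain or run, of the 5 wide domains without H3K4me3 with the most factor peaks (top; the last 2 of them tied with 5 others), the 5 widest without a factor peak (middle) and the 2 longest runs (bottom), drawn to scale with all Cdx4 and Sall4 peaks and H3K27ac and H3K4me3 domains in view. The chromosome 23 domain of 6599 bp carries its peaks on the left side, 249 to 472 bp apart within a factor, and the chromosome 19 run of 8 wide domains has 0 peaks over 22 acetylated domains.

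The domains with the most peaks ranged widely in width. After the widest domain, the most peaks were found in a domain of 1899 bp on chromosome 19 at 43131900 to 43133798 (3 Cdx4 and 3 Sall4 peaks, with no overlapping pair) and in a domain of 3299 bp on chromosome 22 at 18696900 to 18700198 (3 of each, with 2 overlapping pairs). They were followed by 7 domains with 5 peaks each. The first 2 of these in the order of sequence names, both 699 bp wide with 2 Cdx4 and 3 Sall4 peaks, lay on an unplaced scaffold at 35300 to 35998 and on chromosome 13 at 33488300 to 33488998. In the chromosome 13 domain the best Cdx4 score was 261 and H3K4me3 was 35000 bp away.

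H3K27ac score differed little between wide domains with and without factor peaks of similar width. The median score was 299 in domains with a peak (quartiles 202.5 and 529) and 374 in those without (184.5 and 609.5). Among domains up to 800 bp the medians were 246 with a peak and 254.5 without, and among wider domains 612 with a peak and 608 without. Score and width had a Spearman correlation of 0.573 over 562 domains, which share 1 library, and score and number of factor peaks one of -0.0518. Among the 5 highest scores, after the 3 domains without a peak named above, were the chromosome 18 domain with 3086 and the chromosome 10 domain with 2797.

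**Figure D5:**
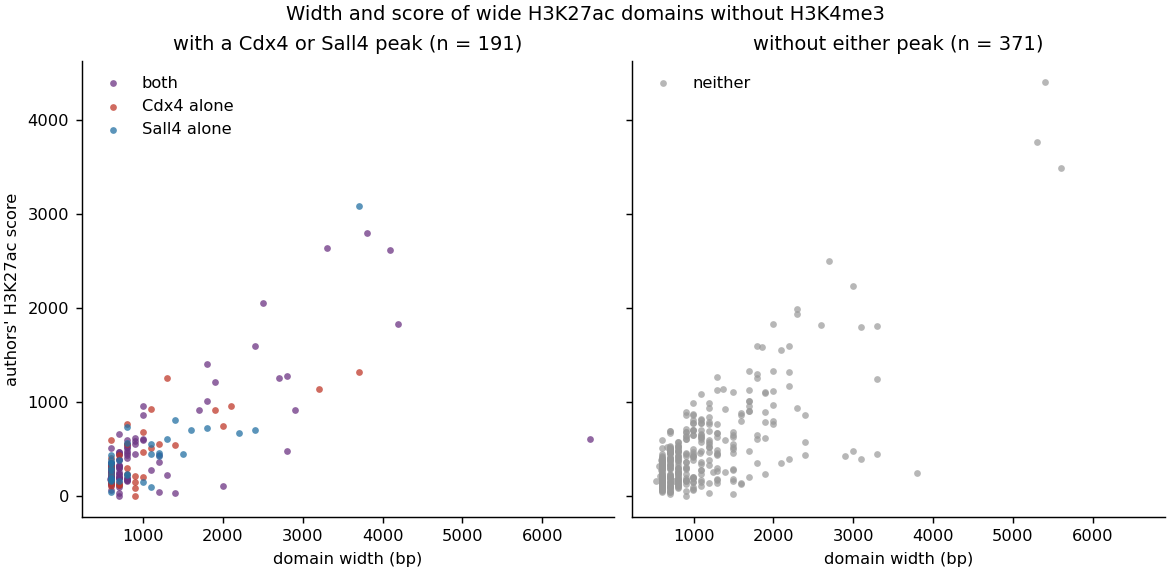
The authors' H3K27ac score (y axis, no unit given) against domain width (bp, x axis) for the wide H3K27ac domains without H3K4me3, each point 1 domain, with a Cdx4 or Sall4 peak on the left (191) and without on the right (371). Scores rise with width on both sides, and the 6599 bp domain with a score of 602 stands below the next 6 in width.

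Of the 371 domains without a peak, most had no Cdx4 peak within 5 kb, and most had no Sall4 peak within 5 kb. They were set apart for holding none, and like values for other H3K27ac domains without a peak are not given here. The nearest Cdx4 peak was a median of 46539 bp away (30849 to 63398 bp, 343 domains on a sequence with one). For Sall4 it was 44921 bp (26884 to 51040 bp, 341 domains). A Cdx4 peak was within 1 kb of 24 of them (6.47%) and within 5 kb of 78 (21.0%), and a Sall4 peak within 1 kb of 24 and within 5 kb of 81 (21.8%).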

How the data were processed

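The authors deposited 1 interval list per ChIP library, with a score per interval, and state no scale or threshold for it. Cdx4 and Sall4 peaks, each 100 bp wide, have names that begin as those of the GPS peak caller do. The submitters' processing notes list CASAVA 1.4 and Bowtie 0.12.7 with no role. Sequencing depth is unknown, and how the input entered is not stated. Scaffold names carry the prefix of Zv8, and both ends were taken as part of an interval, counting from 1.

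H3K27ac domains over 500 bp that overlapped no H3K4me3 domain were selected. Overlap meant at least 1 bp, and distances are bases between intervals. Shares carry exact (Clopper-Pearson) 95% intervals, rates exact Poisson, medians order-statistic and differences of shares Newcombe intervals. All cover counting error only, and neighbouring domains are not independent. No test was run. The domains, comparisons and width classes were chosen with earlier results of these data known. Domains named by position are the 10 widest, the 5 highest-scoring, the 5 with the most peaks (ties taken by sequence name, then start), the 5 widest without a peak, the holders of the highest-scoring peaks and the longest run. The second-longest run, the runs of 5 domains and the runs on chromosome 25 were chosen after their values were seen. Interval functions were tested on simulated data. Scripts ran in Python 3.11.15 with pandas 2.3.3, numpy 2.4.6 and scipy 1.17.1, and figures used matplotlib 3.10.9.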

Additional observations from a re-analysis of the deposited data

How the results depend on the processing

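Each of 22 values was recomputed under up to 15 other settings, and 195 of 274 recomputed values stayed within the 95% interval, or for a count within 1.5 times, of the value reported. Assembled chromosomes only, peak centres inside the domain, at least 50 bp of overlap, and merging gaps of at most 200 bp moved none outside. The width had the most effect. Over 400, 600 and 1000 bp the share of domains with Cdx4 was 35.1, 23.1 and 18.3%, with Sall4 34.4, 22.1 and 20.0%, with both 28.6, 17.1 and 12.6%, and with neither 59.1, 72.0 and 74.3%. Cdx4 peaks per kb were 0.553, 0.281 and 0.168, and Sall4 peaks per kb 0.513, 0.276 and 0.159. The median width was 599, 899 and 1799 bp with a peak and 699, 999 and 1499 bp without. Another H3K27ac domain lay within 5 kb of 55.2, 73.0 and 81.7%. The Cdx4 share minus that of narrow domains without H3K4me3 was 1.52, -12.3 and -16.5 points, and minus that of wide domains with H3K4me3 8.19, -7.63 and -14.5 points. For Sall4 these were 9.79, -5.70 and -7.50 points and 16.6, 3.36 and -2.66 points. Over 400 bp there were 880 domains, at a median of 8601 bp from H3K4me3, and 62.1% of Cdx4 and 62.7% of Sall4 peaks in them were shared. Over 600 bp the relative offset was 0.377 for Cdx4 and 0.462 for Sall4, and with minus without a peak was -10.4 points for H3K27ac and -1.33 points for H3K4me3 within 5 kb. Over 1000 bp there were 175 domains, at a median of 3701 bp from H3K4me3. An overlapping pair was in 68.2% of those with both factors, the Sall4 offset was 0.475, 37.0% of Cdx4 and 39.2% of Sall4 peaks were shared, and with minus without a peak turned to 3.68 points for H3K27ac and 20.3 points for H3K4me3.

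With H3K4me3 ignored there were 906 domains, with Sall4 in 24.2% (0.298 peaks per kb), both factors in 18.4%, a median of 1501 bp to H3K4me3 and an H3K27ac difference of -11.2 points. With the better-scoring part of each peak list split at the median, Cdx4 was in 18.9% (0.234 per kb), Sall4 in 18.5% (0.235 per kb), both in 12.6% and neither in 75.3%, and 44.7% of Sall4 peaks were shared. Peaks widened to 200 bp gave pairs in 92.1% of domains with both factors and sharing of 70.5% of Cdx4 and 72.2% of Sall4 peaks. Coordinates counted from 0 gave median widths of 698 and 798 bp with and without a peak. Few gaps were up to 200 bp (4575 of 4599 domains remained after merging), so merging gaps up to 500 bp was added after the data were seen. It gave a median width of 999 bp without a peak, 7801 bp to H3K4me3 and another H3K27ac domain within 5 kb of 52.0%. Requiring 1 kb to H3K4me3 also gave 7801 bp. Another H3K27ac domain lay within 2 kb of 55.0% and within 10 kb of 70.8%. The comparisons between kinds of domain, between domains with and without a peak, and of shared peaks were also chosen after the data were seen. No paired analysis was possible because each ChIP target had 1 library.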

Other observations

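Wide H3K27ac domains without H3K4me3 lay on all 25 assembled chromosomes (523 domains) and on unplaced scaffolds (39 domains). They made up between 4.23% of the H3K27ac domains on chromosome 4 (6 of 142) and 15.9% on chromosome 19 (30 of 189). Over all sequences they were 562 of 4599. A Cdx4 or Sall4 peak was present in 13 of 20 such domains on chromosome 25 and in 1 of 11 on chromosome 16. Over all sequences this was 191 of 562. Of the 13 on chromosome 25, 3 lay in 1 run, 2 in another and 1 each in further runs, so they are not independent. These chromosomes were named after their counts were seen.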
